A study of Mus musculus with 17 samples.

Results

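The early response of the Egr1 knockout (KO) mouse uterus to estradiol (E2) was read from the arrays labelled KO at 3 h after E2 against the arrays labelled KO at 0 h, over all genes on the array. This comparison holds 4 of the 17 arrays of the study, 2 for KO 3 h and 2 for KO 0 h, taken by the genotype and time in their titles. The other groups used here are KO uterus at 6 h and at 24 h (2 arrays each), wild-type (WT) uterus at 3 h (3 arrays) and WT uterus at 0 h (2 arrays); WT uterus at 6 h and 24 h entered the shared model and the plotted time courses. Total RNA of uterine tissue was read on Illumina bead arrays (MouseWG-6 v2), and the deposited signals are log2 values that had been quantile normalized between arrays. Every signal below is such a log2 value, and every change is a difference of mean log2 signals, KO 3 h minus KO 0 h unless another pair is named, so a change of 1 is a 2-fold difference. The strain, the age of the mice, the E2 dose, any ovariectomy or vehicle injection, the design of the deleted allele and whether the arrays of a group came from separate or pooled animals could not be learned from the labels. The p-values therefore reflect only how far these arrays spread, and that spread may be technical.

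Estradiol acts in the uterus mainly through the nuclear receptor ESR1, which is present in epithelium, stroma and muscle. The hormone first induces short-lived transcription factors and signalling inhibitors, then growth factors, vascular and fluid-handling genes and the machinery of protein synthesis, and only later DNA synthesis in the epithelium. EGR1 is a zinc-finger transcription factor of the immediate-early class that binds GC-rich sites in promoters, and it is itself rapidly induced by estrogen and by growth factors.

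The Egr1 probe was read first. Its log2 signal was 14.69 and 14.59 on the KO 3 h arrays and 13.48 and 13.63 on the KO 0 h arrays, against 14.87, 14.94 and 14.56 on the WT 3 h arrays and 12.24 and 12.51 on the WT 0 h arrays. The arrays labelled KO thus carried Egr1 signal at every time, and at 0 h it lay 1.18 log2 units above WT (limma, adjusted p = 0.00302). The signal rose by 1.09 ± 0.18 (SE) in KO uterus (adjusted p = 0.000265), and that rise was 1.33 smaller than the WT rise (interaction -1.33, adjusted p = 0.0241). That genotype call was lost in 5 of the 9 fits that left out an array (the second KO 3 h, the second KO 0 h, the first or second WT 3 h, or the first WT 0 h array), with the difference at -1.46 to -1.20. The sources used here do not place this probe inside or outside the deleted part of the gene, so it does not check the genotype labels, and KO below means the arrays so labelled. Esr1 showed log2 signals of 11.11 and 10.43 at KO 3 h and of 10.85 and 10.54 at KO 0 h, and its change of 0.07 ± 0.17 did not pass the test (adjusted p = 0.805; -0.27 without the first KO 3 h array and 0.41 without the second).

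Of 14737 genes tested with limma over all 17 arrays, 5952 passed an adjusted p of 0.05 in KO 3 h against KO 0 h, which is 40.4% of the genes. Of these, 2803 genes (19%) were higher and 3149 (21.4%) were lower at KO 3 h. Each list count below is to be read beside these shares. The lists were drawn up with earlier results of these data known, so their counts and rankings are not independent of those results. A change of at least 2-fold was seen in 659 of the called genes (4.47%), 339 higher and 320 lower. The largest changes leaned upward: 55 called genes were at least 4-fold higher and 25 at least 4-fold lower, and 15 were at least 8-fold higher and 2 at least 8-fold lower. The median change of all genes was -0.007. The KO 3 h and KO 0 h arrays did not overlap for 9832 genes (66.7%), a share that includes many small differences. Leaving out each of the 4 arrays in turn kept 4008 of the 5952 calls in all 4 fits and 641 of the 659 calls of at least 2-fold, with 0 reversals of direction.

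The first KO 3 h array (title letter B) had moved farther from 0 h than the second (title letter C). Among the 659 genes it held the larger deviation for 547 (83.0%), and the median rise was 1.42 on the first array and 1.26 on the second, with median falls of -1.36 and -1.14. Over all 45281 probes the correlation of the first array with the KO 0 h arrays was 0.947 to 0.954, and that of the second 0.961 to 0.965. The arrays of a group correlated at 0.991 (KO 3 h) and 0.993 (KO 0 h). Without the first KO 3 h array 537 genes were called with at least a 2-fold change, and without the second 841. Where leaving out 1 of the 4 arrays ended a call named below, that array is given.

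The largest rises brought together a histone-reader homologue, a glutathione-degrading enzyme, a cytokine inhibitor, tissue kallikreins and classical estrogen targets. Phf21b, which encodes a plant-homeodomain finger protein, had log2 signals of 13.22 and 12.77 at KO 3 h and of 9.11 and 8.94 at KO 0 h, a 15.6-fold rise (change 3.96 ± 0.18, SE; adjusted p = 1.12e-08). Chac1, a glutathione-specific cyclotransferase induced by ATF4, had 13.66 and 12.47 at KO 3 h against 9.22 and 9.40 at KO 0 h (change 3.75 ± 0.62, adjusted p = 0.000209). Its KO 3 h arrays stood apart from each other, yet both lay far above both KO 0 h arrays. Socs3, the inhibitor of JAK-STAT signalling, was tighter, with 13.61 and 13.49 at KO 3 h against 9.92 and 9.79 at KO 0 h (change 3.69 ± 0.19, adjusted p = 1.44e-08).

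Ptges, the inducible prostaglandin E synthase, had 12.09 and 12.10 at KO 3 h against 8.88 and 8.82 at KO 0 h (change 3.25, with 1.28 on a second probe of the gene). Fos, the AP-1 subunit, had 12.67 and 12.24 at KO 3 h against 9.20 and 9.33 at KO 0 h (change 3.19). Mad2l1, a spindle checkpoint protein that is also an early estrogen target in uterus, had 12.72 and 12.74 at KO 3 h against 9.54 and 9.62 at KO 0 h (change 3.15, with 2.19 on a second probe). In each of these the groups stood several log2 units apart and the arrays within a group well under 1 unit. The other genes among the 15 largest rises were Klk1b5, Klk1, Klk1b26, Klk1b27 and Klk1b21, P4ha2 (a collagen prolyl hydroxylase; 3.24, with 0.13 to 2.94 on 2 other probes), Tmem200a (3.07), Greb1 (a cofactor of ESR1; 3.03) and Slc6a2 (the noradrenaline transporter; 3.01, with 0.37 to 0.76 on 2 other probes). Being called in each fit that left out an array was part of how these 15 and the 15 falls below were chosen.

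Among falls that stayed called with each array left out, the largest held an R-spondin, stress-responsive growth inhibitors, a clock output gene and a block of adipocyte genes. Adipoq, given below, fell further but lost its call without the first KO 3 h array. Rspo3, a secreted enhancer of Wnt signalling, had 9.26 and 9.39 at KO 3 h against 12.14 and 12.07 at KO 0 h (change -2.78 ± 0.12, adjusted p = 8.77e-09; -1.13 on a second probe). Sesn1, a p53- and FOXO-linked inhibitor of mTORC1, had 9.66 and 10.05 at KO 3 h against 12.55 on both KO 0 h arrays (change -2.69, with -2.45 and -0.57 at the ends of the range of 2 other probes). Dbp, the PAR-domain transcription factor at the output of the clock, had 10.96 and 11.83 at KO 3 h against 13.89 and 13.84 at KO 0 h (change -2.47). Msc, a repressor of the basic helix-loop-helix class, fell by 2.31, Galnt15, a mucin-type glycosyltransferase, by 2.45 and Denn2b (the name in the array annotation) by 2.31. C2cd4a fell by 2.78 on its brightest probe, while its 2 other probes changed by -0.07 and 0.08. Fam214a (-2.29) and Klhl24 (-2.13) completed the falls outside fat and plasma protein genes.

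The adipocyte genes among the largest falls were far lower on the first KO 3 h array than on the second. Car3, a carbonic anhydrase abundant in fat, had log2 signals of 8.39 and 10.24 at KO 3 h against 12.04 and 12.27 at KO 0 h (change -2.84 ± 0.63, adjusted p = 0.0022; -1.91 without the first KO 3 h array). Cidec, a lipid droplet protein, had 8.26 and 9.50 against 11.50 and 11.61, and Lep, which encodes leptin, had 8.38 and 9.34 against 11.31 and 11.11, each KO 3 h first. Plin4 fell by 2.21, and Trf, which encodes transferrin, by 2.22. Hp, which encodes haptoglobin, had 8.57 and 9.32 at KO 3 h against 10.95 and 12.54 at KO 0 h, so its KO 0 h arrays stood well apart. Of 11 measured adipocyte markers 8 fell and 1 rose, with a median change of -1.93, and -1.22 without the first KO 3 h array. In whole tissue, fewer cells of a type and less RNA per cell cannot be told apart, and the part of attached fat in these falls was not tested.

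**Figure D1:**
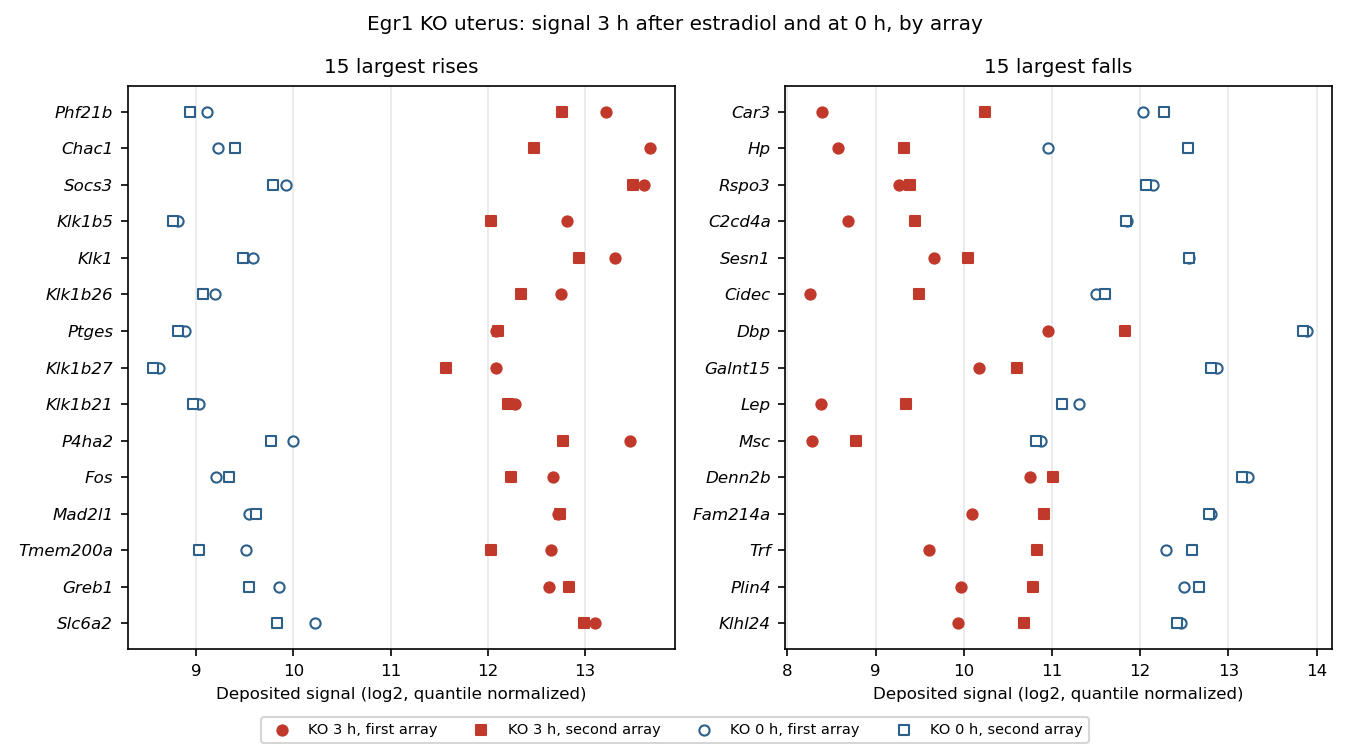
Deposited log2 signal (x axis) of the 15 genes with the largest rise (left) and the 15 with the largest fall (right), 1 row a gene, for the 2 KO 3 h arrays (filled red) and the 2 KO 0 h arrays (open blue). Genes were chosen for groups that do not overlap and for calls in each fit that left out an array, and the 2 KO 3 h arrays lie far apart for the fat genes Car3, Cidec and Lep.

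Immediate-early transcription factors, which relay a stimulus within minutes to hours, were still raised at KO 3 h. Of 24 measured members 14 were higher and 1 lower, with a median change of 0.53. Besides Fos, the largest rises were those of Ier3, a survival-linked stress gene (14.13 and 14.02 at KO 3 h, 11.85 and 12.01 at KO 0 h; change 2.15), of the AP-1 subunit Junb (1.97) and of the zinc-finger factor Klf4 (1.57, with 1.29 to 1.73 on 2 other probes). The nuclear orphan receptors of the NR4A family, named here after their values were seen, changed by -0.04 (Nr4a1), 0.11 (Nr4a2) and 0.13 (Nr4a3) and did not pass the test.

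Feedback inhibitors of cytokine, MAP kinase and growth factor signalling rose with them. Of 29 measured members 17 were higher and 4 lower, with a median change of 0.39. Gadd45g had log2 signals of 15.05 and 14.94 at KO 3 h against 13.02 and 12.68 at KO 0 h (change 2.15). Gadd45a, like Gadd45g a growth arrest and stress sensor, rose by 2.13 and Errfi1, the inhibitor of the EGF receptor family, by 1.76. The Errfi1 rise was 0.73 smaller than in WT uterus (interaction -0.73, adjusted p = 0.0429), but that call was lost in 6 of the 9 fits that left out an array (the second KO 3 h, a KO 0 h, the first or second WT 3 h, or the first WT 0 h array). Errfi1 had 12.60 and 12.56 at KO 0 h against 11.86 and 12.06 at WT 0 h. At 3 h it had 14.37 and 14.31 in KO and 14.48, 14.54 and 14.33 in WT, so the genotypes lay further apart at 0 h. The Socs3 rise differed from WT by -0.04 (adjusted p = 0.967). In the MYC and MAX network 3 of 12 members were higher and 3 lower (25% each), near the shares of all genes (19% and 21.4%). Mycl, a MYC paralogue, rose by 1.35 and the glucose-sensing factor Mlxipl by 1.23, and the MYC antagonists Mxd4 and Mxi1 fell by 1.29 and 0.62. The Mycl rise was 0.91 larger than in WT uterus (adjusted p = 0.0225), a call lost without the second KO 3 h, the second KO 0 h or the first WT 0 h array. The other 2 probes of Mxd4 changed by -0.19 and -0.10.

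Genes reported as early estrogen targets gave the highest list median. Of 20 measured members 15 were higher and 0 lower, and the median change was 1.31. Greb1 had log2 signals of 12.63 and 12.83 at KO 3 h against 9.86 and 9.55 at KO 0 h, with 2.83 on its second probe. Wnt4, a ligand of uterine stroma and epithelium, had 11.36 and 10.999 at KO 3 h against 8.73 and 8.59 at KO 0 h (change 2.52 ± 0.20, adjusted p = 3.45e-07). Vegfa, the vascular permeability and angiogenic factor, had 13.88 and 13.87 at KO 3 h against 11.83 and 11.52 at KO 0 h (change 2.20, with 0.00 to 2.82 on 2 other probes). Members of this list were chosen in part from earlier work on estrogen in uterus, so their direction was known beforehand.

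Among genes reported as EGR1 targets, 5 of 15 measured members were higher (33.3%) and 3 lower (20%) in KO uterus, against 19% and 21.4% of all genes. The median change was 0.04, and -0.03 without the first KO 0 h array. The 4 largest changes were rises, of Ptges, Mad2l1, Vegfa and Icam1. Icam1, a leukocyte adhesion molecule, had 11.11 and 11.10 at KO 3 h against 9.83 and 10.06 at KO 0 h (change 1.16). This change was 0.71 less than in WT uterus (interaction, adjusted p = 0.00451). WT uterus had 9.44 and 9.58 at 0 h and 11.37, 11.34 and 11.42 at 3 h. Icam1 in KO thus lay higher than in WT at 0 h and lower at 3 h. For Ptges, Mad2l1 and Vegfa the difference from the WT change was -0.19, 0.12 and 0.34 and did not pass the test.

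Of 16 measured steroid receptors and coregulators 3 were higher (18.8%) and 4 lower (25%), near the shares of all genes (19% and 21.4%), and 2 were lower without the first KO 3 h or the first KO 0 h array. Pgr, the progesterone receptor and a direct estrogen target, had 10.62 and 10.50 at KO 3 h against 9.23 and 9.11 at KO 0 h (change 1.39, and 1.58 on a second probe). The orphan receptor Nr2f6 rose by 0.58 (0.01 on a second probe). The membrane estrogen receptor Gper1 fell by 0.55, and Nr2f2, the COUP-TFII of uterine stroma, by 0.38. The Nr2f2 call was lost without the first KO 3 h array (-0.28) and without the first KO 0 h array (-0.27), and its fall was 0.84 smaller than in WT uterus (adjusted p = 0.0103), a call lost without the second KO 0 h array (adjusted p = 0.0594).

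Growth factor ligands and their receptors fell more often than they rose. Of 26 measured ligands 6 were higher (23.1%) and 11 lower (42.3%), with a median of -0.15. Of 26 receptors, binding proteins and adaptors 4 were higher (15.4%) and 12 lower (46.2%), with a median of -0.19. Fewer of the latter were higher without the first KO 3 h array. Over all genes 19% were higher and 21.4% lower. Pgf, the placental growth factor, had 10.32 and 10.31 at KO 3 h against 8.20 and 8.19 at KO 0 h (change 2.11). Ccn2, the matricellular connective tissue growth factor, had 10.79 and 10.97 at KO 3 h against 12.88 and 12.95 at KO 0 h (change -2.04, and -2.08 on a second probe). Fgf10, a stromal ligand for epithelial FGFR2, fell by 1.68.

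Among the receptors and binding proteins Pdgfra, a receptor of mesenchymal cells, fell by 1.57 (-0.09 on a second probe), Fgfr2 by 1.24 (-0.62 to 0.06 on 2 other probes) and the IGF-binding protein Igfbp3 by 1.12. Ramp3, which gives the calcitonin receptor-like receptor its adrenomedullin response, rose by 2.05 (1.90 on a second probe).

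Amino-acid response genes driven by ATF4, the factor translated when amino acids or ER folding capacity run short, were often higher but unevenly so. Of 28 measured members 13 were higher and 1 lower, and the median change of 0.39 dropped to 0.19 without the first KO 3 h array. Cebpb, a C/EBP factor that is also an early estrogen target, had 14.17 on both KO 3 h arrays against 12.24 and 12.21 at KO 0 h (change 1.94). Mthfd2, a mitochondrial folate enzyme, had 12.12 and 11.34 at KO 3 h against 10.12 and 9.50 at KO 0 h (change 1.92, and 0.76 on a second probe). Trib3, a pseudokinase that restrains ATF4 signalling, had 11.37 and 10.66 at KO 3 h against 9.41 and 9.37 at KO 0 h (change 1.62, with 0.39 to 0.48 on 2 other probes). For Chac1, Mthfd2 and Trib3 alike, the first KO 3 h array was the higher of the pair.

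Cytosolic aminoacyl-tRNA synthetases, which load tRNAs for translation and include known ATF4 targets, were higher for 11 of 19 measured members and lower for 0, with a median change of 0.33. Cars, the cysteinyl enzyme, had log2 signals of 11.50 and 11.18 at KO 3 h against 9.21 and 9.03 at KO 0 h (change 2.22, and 0.22 on a second probe). Aars, the alanyl enzyme, rose by 1.28, Nars, the asparaginyl enzyme, by 0.93 and Iars, the isoleucyl enzyme, by 0.76 (0.04 to 0.71 on 3 other probes). The brightest probe stood for each gene, so the probes of Cars and Iars did not give the same size of change.

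Promoters of the genes in all lists were searched for several motifs. One motif is given here for these 2 lists because their members moved together, and most other results of the search are not given. The RefSeq table for assembly GRCm38.p6 gives 250 bases before and 50 bases after each annotated start, and 11820 tested genes were matched to it by symbol. The core of the composite site bound by C/EBP and ATF factors, spelled TGATGNAA and sought on both strands, lay in the promoters of 7 of 24 ATF4-response genes (29.2%) and of 5 of 12 synthetase genes (41.7%), against 378 of 11820 tested genes (3.2%). Over all 32851 promoters listed, 3.97% held it. The stretches below show matches in capitals with 10 bases on either side, 5′ to 3′ on the strand of the match, so that the shared letters and the differing flanks can be compared.
Trib3 (chr2:152344029-152344056, plus strand): cccgcccggcTGATGTAAacctgagcta
Chac1 (chr2:119351039-119351066, minus strand): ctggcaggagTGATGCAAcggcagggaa
Asns (chr6:7693215-7693242, minus strand): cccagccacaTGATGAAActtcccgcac
Slc7a11 (chr3:50443662-50443689, minus strand): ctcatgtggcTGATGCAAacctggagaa
Slc7a11 (chr3:50443643-50443670, plus strand): ggctgcatgaTGATGCAAattctccagg
Slc1a4 (chr11:20332700-20332727, plus strand): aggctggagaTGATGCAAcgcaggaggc
Nupr1 (chr7:126625563-126625590, plus strand): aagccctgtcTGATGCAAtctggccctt
Vldlr (chr19:27216810-27216837, minus strand): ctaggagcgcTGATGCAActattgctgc
Gars (chr6:55037961-55037988, minus strand): gcccggtgcaTGATGAAAtagcgcagcc
Iars (chr13:49682127-49682154, minus strand): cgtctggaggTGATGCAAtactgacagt
Tars (chr15:11399656-11399683, plus strand): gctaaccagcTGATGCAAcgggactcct
Yars (chr4:129189896-129189923, plus strand): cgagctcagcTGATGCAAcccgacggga
Slc7a11 holds 2 matches. The ATF4-response list was drawn up from known ATF4 targets, so an excess of the core in it is not independent of how it was made. The synthetase list holds the enzyme family, which includes known ATF4 targets. The core did not go with a rise in every gene. Of the 7 ATF4-response genes with the core 4 were higher and 1, Nupr1, was lower, with a median change of 0.50, and of the 17 without it 9 were higher, with a median of 0.40. Of the 5 synthetases with the core 3 were higher (median 0.53), and of the 7 without it 3 (median 0.15). These counts are given with no test.

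The whole promoter windows of 3 of the largest risers are shown because each holds a searched motif. Capitals mark the core in Chac1, at positions -193 to -186 from the annotated start and read on its reverse strand, and the EGR1 consensus, spelled GCGNGGGCG and sought on both strands, in Socs3 at -181 to -173 and in Mad2l1 at -53 to -45.
Chac1 (chr2:119350992-119351291, plus strand): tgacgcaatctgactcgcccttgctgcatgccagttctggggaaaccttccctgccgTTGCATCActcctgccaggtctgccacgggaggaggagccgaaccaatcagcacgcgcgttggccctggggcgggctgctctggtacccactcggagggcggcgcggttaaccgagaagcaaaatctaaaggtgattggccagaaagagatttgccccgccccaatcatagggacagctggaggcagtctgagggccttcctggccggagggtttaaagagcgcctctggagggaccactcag
Socs3 (chr11:117969317-117969616, minus strand): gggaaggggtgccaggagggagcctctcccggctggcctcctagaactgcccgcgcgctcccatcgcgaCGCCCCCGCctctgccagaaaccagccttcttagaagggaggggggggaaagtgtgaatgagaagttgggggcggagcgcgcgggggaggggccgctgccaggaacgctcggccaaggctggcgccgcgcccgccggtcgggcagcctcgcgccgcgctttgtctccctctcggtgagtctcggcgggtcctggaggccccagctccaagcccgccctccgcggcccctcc
Mad2l1 (chr6:66534971-66535270, plus strand): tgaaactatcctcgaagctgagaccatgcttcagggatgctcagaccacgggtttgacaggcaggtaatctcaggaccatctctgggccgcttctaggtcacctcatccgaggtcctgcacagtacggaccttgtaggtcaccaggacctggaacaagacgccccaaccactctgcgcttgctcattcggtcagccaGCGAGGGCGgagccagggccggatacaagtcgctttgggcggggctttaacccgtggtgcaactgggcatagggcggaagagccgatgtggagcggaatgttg
The EGR1 consensus lay in the promoters of 38 of 280 genes called at least 2-fold higher (13.6%) and of 23 of 240 called at least 2-fold lower (9.58%), against 10.7% of tested genes. The E-box CACGTG lay in 13.6% of the risers and 10.4% of the fallers, against 10.7% of tested genes (1259 genes). Promoters chosen by the same rule but not shown belonged to genes that moved both ways. Sesn1 (change -2.69) held the EGR1 consensus at -10 to -2. The E-box lay in the promoters of Aqp5 (change 2.87) and C2cd4a (change -2.78). A match is a description of these letters in this window. The estrogen response element GGTCANNNTGACC was held by 0 of the 280 risers, 0 of the 240 fallers and 3 of the tested genes in these windows.

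Ribosome biogenesis had the highest share of members called higher among the 36 pathway lists. The lists were drawn up with earlier results of these data known, so this ranking is not independent of how they were made. Of 35 measured factors for ribosomal RNA transcription, processing and assembly 29 were higher and 0 lower, with a median change of 0.62, and 27 to 29 were higher in the fits that left out an array. Nop58, a core protein of box C/D particles, had log2 signals of 13.35 and 13.05 at KO 3 h against 11.69 and 11.46 at KO 0 h (change 1.62 ± 0.15, adjusted p = 2.12e-06). Rrp12 rose by 1.61, Rrp1b by 1.59 (0.20 to 1.72 on 3 other probes) and the helicase Ddx21 by 1.46 (2.11 on a second probe).

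Translation factors followed, with 16 of 25 measured members higher and 4 lower. Their median change was 0.49, and 0.23 without the first KO 3 h array. Etf1, the release factor, had 13.72 and 13.22 at KO 3 h against 12.08 and 12.001 at KO 0 h (change 1.43), and Eif2s2, a subunit of the factor that carries initiator tRNA, rose by 1.16. Eef1e1, a scaffold of the synthetase complex, rose by 1.12 and the helicase Eif4a1 by 1.04.

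Chaperone genes of both the cytosol and the endoplasmic reticulum were called higher. Of 24 measured heat shock proteins and chaperonin subunits 17 were higher and 0 lower (median 0.39). Hsph1 had 13.24 and 13.01 at KO 3 h against 11.43 and 11.09 at KO 0 h (change 1.87), Hspa1a rose by 1.25 (0.41 on a second probe), Dnajb1 by 1.10 and the chaperonin subunit Cct3 by 1.04 (0.00 to 1.03 on 2 other probes). Of 24 genes of ER folding and the unfolded protein response 10 were higher and 0 lower (median 0.25, and 0.16 without the first KO 3 h array). The number higher was 5 without that array and 6 without the first KO 0 h array.

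Within the ER list, Ern1, which encodes the stress sensor IRE1, rose by 1.12 (0.29 on a second probe), Herpud1, a factor of ER-associated degradation, by 1.01 and the calcium-binding chaperone Calr by 1.01 (0.09 on a second probe). Creld2, an ER stress-induced secreted protein, had 12.34 and 11.40 at KO 3 h against 10.54 and 10.77 at KO 0 h; its change of 1.21 was 0.74 and not called without the first KO 3 h array. Proteasome subunits rose slightly, with 15 of 28 measured members higher, 0 lower and a median of 0.34, led by Psmc5 (0.66), Psmd12 (0.63), Psmc2 (0.60) and Psmd1 (0.55).

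**Figure D2:**
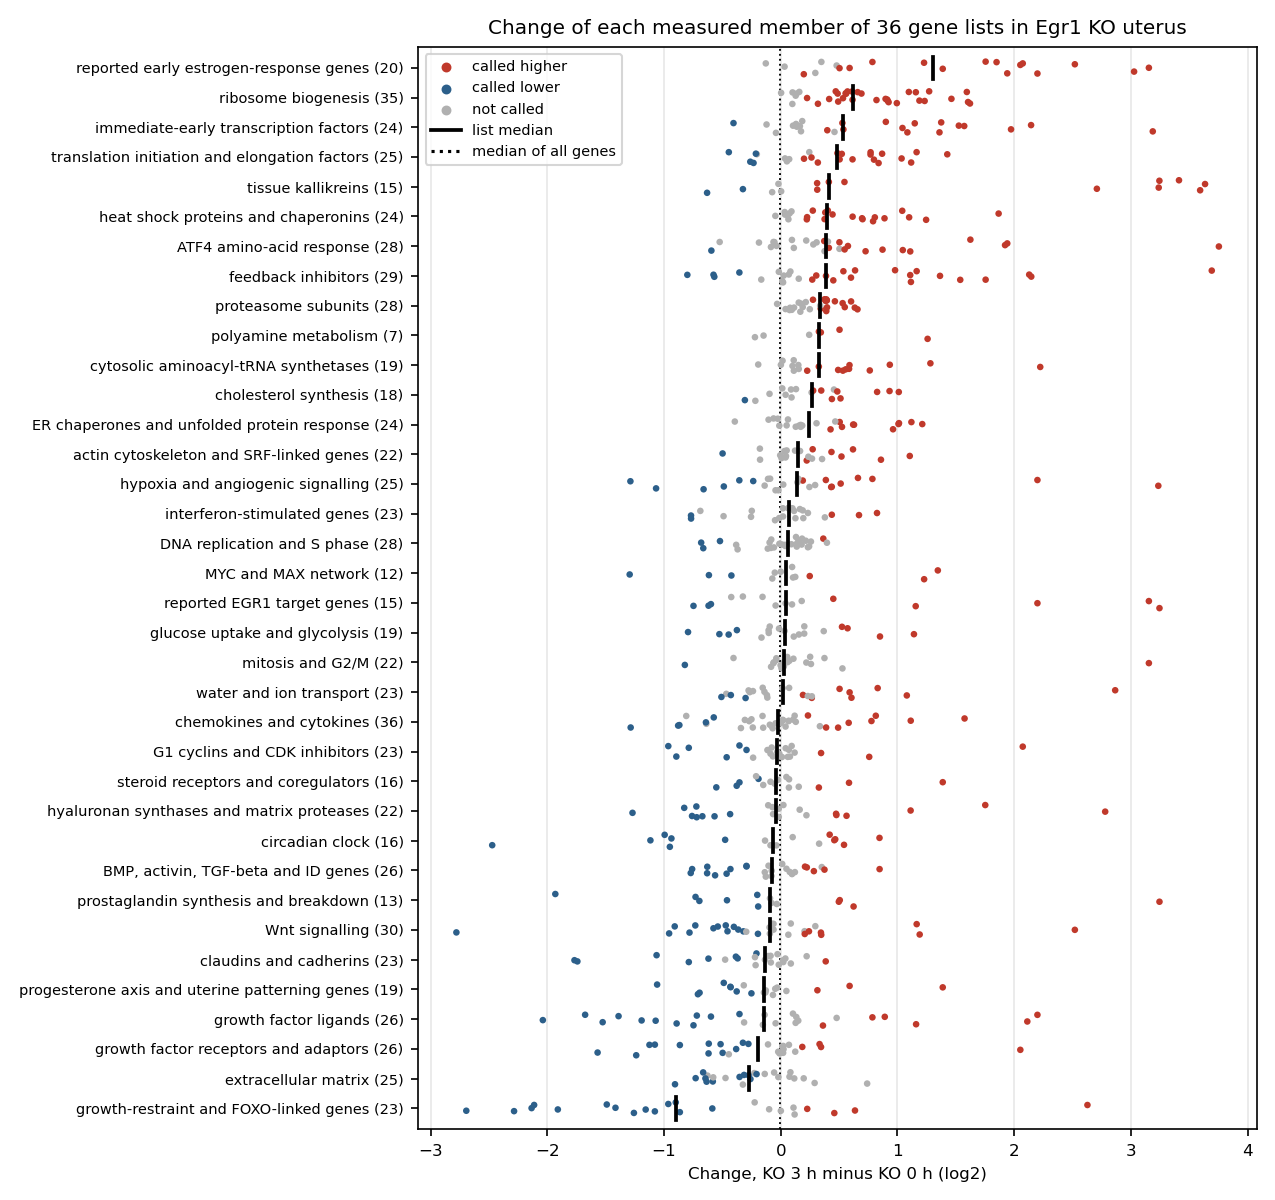
Change in log2 signal, KO 3 h minus KO 0 h (x axis), of each measured member of 36 gene lists (rows, number measured in brackets), with red for called higher, blue for called lower, grey for not called, and a black bar at the list median. The early estrogen-response list has the highest median (1.31) and the growth-restraint list the lowest (-0.90), and the dotted line marks the median of all genes (-0.007). The lists were drawn up with earlier results of these data known.

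In cholesterol synthesis 8 of 18 measured enzymes and regulators were higher and 1 lower (median 0.27), and 3 to 7 were higher in the fits that left out an array. The squalene epoxidase Sqle rose by 1.01 and the sterol oxidase Msmo1 by 0.93. Cyp51 rose by 0.83 and Hsd17b7 by 0.51, but without the first KO 3 h array these were 0.61 and 0.28 and not called, and Hsd17b7 also lost its call without the first KO 0 h array. Of 19 members of glucose uptake and glycolysis 4 were higher and 4 lower (21.1% each), near the shares of all genes. The neuronal-type glucose transporter Slc2a3 rose by 1.14, Hk1 by 0.85 (0.25 on a second probe) and Gapdh by 0.57, while the muscle phosphofructokinase Pfkm fell by 0.79.

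Of 7 measured genes of polyamine metabolism 4 were higher and 0 lower, with 2 higher without the first KO 3 h array. Srm, spermidine synthase, had 11.49 and 11.20 at KO 3 h against 10.07 and 10.10 at KO 0 h (change 1.26), and the antizyme inhibitor Azin1 rose by 0.33. Odc1, ornithine decarboxylase, had 12.57 and 12.60 at KO 3 h against 12.01 and 12.15 at KO 0 h; its change of 0.50 was called in the fit of all arrays but lost the call without either KO 3 h array or without the first KO 0 h array (0.43 to 0.57). Smox rose by 0.34, with its call lost without the first KO 3 h array (0.29).

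Prostaglandin genes moved both ways. Of 13 measured members 4 were higher (30.8%) and 6 lower (46.2%), against 19% and 21.4% of all genes. Beside the rise of Ptges, Hpgd, the enzyme that inactivates prostaglandins, had 8.502 and 8.67 at KO 3 h against 10.51 and 10.53 at KO 0 h (change -1.93 ± 0.09, adjusted p = 1.32e-08). The prostaglandin E receptors Ptger2 and Ptger3 fell by 0.73 and 0.70.

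Tissue kallikreins, serine proteases clustered on chromosome 7, rose strongly for Klk1 and its closest relatives. Of 15 measured members 10 were higher and 2 lower, with a median change of 0.41. Klk1 had log2 signals of 13.31 and 12.94 at KO 3 h against 9.58 and 9.48 at KO 0 h (change 3.59), and Klk1b5 had 12.81 and 12.03 against 8.81 and 8.76, KO 3 h first (change 3.64). Klk1b26 rose by 3.41, Klk1b27 by 3.24 and Klk1b21 by 3.24. The Klk1b genes are near-identical copies, and a probe of one can bind transcripts of another, so their separate values are uncertain. Other probes gave 0.26 to 0.28 for Klk1b5, -0.08 for Klk1b26, 2.59 for Klk1b27 and 1.61 to 1.71 for Klk1b21.

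Water and ion transport had 8 of 23 measured members higher and 3 lower (5 lower without the second KO 3 h array). The water channel Aqp5 of glandular epithelia had 11.39 and 11.59 at KO 3 h against 8.63 and 8.62 at KO 0 h (change 2.87 ± 0.18, adjusted p = 4.75e-08). Kcnk1, a potassium channel, rose by 1.08, Scnn1a, a subunit of the epithelial sodium channel, by 0.83 and the water channel Aqp8 by 0.61. In hypoxia and angiogenic signalling 9 of 25 members were higher (36%) and 6 lower (24%), against 19% and 21.4% of all genes. Beside P4ha2 and Vegfa, the inhibitory subunit Hif3a fell by 1.29 on its brightest probe (-0.12 to -0.06 on 2 others) and Ndrg1 by 1.07. The Hif3a change differed from that of WT by -1.26 (adjusted p = 0.0236), a call lost without the second KO 0 h, the first or second WT 3 h, or the first WT 0 h array. Hif3a had 9.84 and 10.18 at KO 0 h. In WT uterus it had 8.29 and 8.42 at 0 h and 8.31, 8.48 and 8.21 at 3 h. These WT signals lay near the array median of 8.20, so a fall in WT could hardly be seen.

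Genes linked to growth restraint, most of them FOXO or fasting targets, showed the lowest median among the 36 pathway lists. This list was drawn up with earlier results of these data known, so its median is not independent of how it was made. Of 23 measured members 14 were lower and 4 higher, with a median change of -0.90. Sesn1, Fam214a and Klhl24 led the falls. Fam214a had log2 signals of 10.10 and 10.91 at KO 3 h against 12.80 and 12.78 at KO 0 h (-0.75 on a second probe), and Klhl24, a substrate adaptor for ubiquitin ligase, had 9.93 and 10.68 against 12.46 and 12.42, KO 3 h first (-0.87 to -0.66 on 2 other probes). Tob1, an antiproliferative partner of the deadenylase complex, went the other way, with 12.24 and 11.99 at KO 3 h against 9.51 and 9.46 at KO 0 h (change 2.63).

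Clock genes moved both ways, with 5 of 16 measured members higher (31.25%, fewer without the first KO 3 h array) and 6 lower (37.5%). Over all genes the shares were 19% and 21.4%. Beside Dbp, the related factor Tef fell by 0.99 (0.09 on a second probe), Per1 had 10.21 and 10.28 at KO 3 h against 11.39 and 11.34 at KO 0 h (change -1.12), and Per3 fell by 0.95. The sources used here do not give the hour of day at which the tissues were collected, so time after E2 and time of day cannot be told apart.

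Wnt signalling had 7 of 30 measured members higher (23.3%, near the 19% of all genes) and 13 lower (43.3%, against 21.4% of all genes). Beside Wnt4 and Rspo3, Wnt7b, an epithelial ligand, rose by 1.19 (0.33 on a second probe), and Axin2, a negative-feedback target of the pathway, had 12.62 and 12.64 at KO 3 h against 11.64 and 11.29 at KO 0 h (change 1.16). In the BMP, activin, TGF-beta and ID list 5 of 26 members were higher (19.2%, near the 19% of all genes) and 9 lower, with 1 higher without the second KO 0 h array and 2 without the first KO 3 h array. Id1 rose by 0.85, whereas Id2, likewise an inhibitor of helix-loop-helix factors, fell by 0.63. Bmp4 fell by 0.77 and the receptor Tgfbr2 by 0.76, each with a second probe near 0 (-0.02 and -0.09).

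Of 19 measured genes of the progesterone axis and uterine patterning 3 were higher and 8 lower. Ptch1, the Hedgehog receptor, had 8.61 and 8.69 at KO 3 h against 9.75 and 9.67 at KO 0 h (change -1.06). Sox17, an epithelial and endothelial factor, fell by 0.71 and the homeobox factor Msx1 by 0.70 (0.04 on a second probe). Junction genes were lower for 8 of 23 measured members and higher for 1. Cldn1 had 8.18 and 8.32 at KO 3 h against 10.06 and 9.97 at KO 0 h (change -1.77), the endothelial Cldn5 fell by 1.74, the epithelial Cldn3 by 1.06 and Cldn23 by 0.79.

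Extracellular matrix genes were lower for 11 of 25 measured members and higher for 0, with a median change of -0.28. The number lower ranged from 4 without the second KO 0 h array to 10 without the first. The proteoglycan Bgn had 12.52 and 12.89 at KO 3 h against 13.50 and 13.71 at KO 0 h (change -0.91), and the fibrillar collagen chain Col5a2 fell by 0.66. Lum fell by 0.73, with its call lost when the first KO 3 h or second KO 0 h array was left out, and Col6a2 changed by 0.74 without passing the test (adjusted p = 0.0942).

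Hyaluronan synthases and matrix proteases had 6 of 22 members higher (27.3%) and 8 lower (36.4%, fewer without the second KO 0 h array). Over all genes the shares were 19% and 21.4%. The versican-cleaving protease Adamts4 had 11.80 and 11.43 at KO 3 h against 9.07 and 8.60 at KO 0 h (change 2.78), which was 1.23 less than in WT uterus (interaction -1.23, adjusted p = 0.0229), a call lost without the second KO 3 h, the first KO 0 h, the first WT 3 h or the first WT 0 h array. Adamts9 rose by 1.75 (0.75 on a second probe), Adamts1 by 1.11, and the stromelysin Mmp11 fell by 1.27. The Adamts1 rise was 0.66 smaller than in WT (interaction -0.66, adjusted p = 0.042), and that call was lost in 6 of the 9 fits that left out an array (all but those without the first KO 3 h, second WT 3 h or second WT 0 h array). Among actin cytoskeleton and SRF-linked genes 7 of 22 were higher and 1 lower, led by Rhoc (1.11, with 0.33 on a second probe), Cfl1 (0.86), Tpm3 (0.62) and Rnd3 (0.52).

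Few cell cycle genes of S phase and mitosis were called at 3 h. Replication genes were higher for 3.57% and lower for 10.7%, and genes of mitosis and G2/M for 4.55% each. Over all genes the shares were 19% and 21.4%. Of 28 measured replication genes 1 was higher and 3 lower (0 higher when the first KO 3 h array or a KO 0 h array was left out, 5 lower without the second KO 3 h array), and of 22 genes of mitosis and G2/M 1, Mad2l1, was higher and 1 lower. The helicase subunit Mcm7 fell by 0.52 and the polymerase subunit Pold1 by 0.68, and Lig1 fell by 0.66 with its call lost without the first KO 3 h array (-0.48). Bub1b, a checkpoint kinase, had 9.06 and 9.66 at KO 3 h against 9.996 and 10.36 at KO 0 h (change -0.82, and -0.52 without the first KO 3 h array). The flap endonuclease Fen1 (0.40) did not pass the test, nor did Kif23 (0.53, and 0.20 to 0.86 with an array left out). Cenpa had 9.47 and 10.84 at KO 3 h against 10.21 and 10.91 at KO 0 h and was not called, with a change of 0.28 without the first KO 3 h array and -1.09 without the second. The median change of the mitosis list was 0.03, with 0.31 without the first KO 3 h array and -0.13 without the second.

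Of 23 measured regulators of G1 3 were higher (13.0%) and 6 lower (26.1%), against 19% and 21.4% of all genes. Cdkn1a, the CDK inhibitor p21, had log2 signals of 11.80 and 11.70 at KO 3 h against 9.69 and 9.67 at KO 0 h (change 2.07, with 1.10 to 1.34 on 2 other probes). The atypical cyclins Ccng2 and Ccng1 fell by 0.96 and 0.79, and the CDK4 and CDK6 inhibitor Cdkn2c by 0.89. The other probes of Ccng1 and Cdkn2c changed by -0.18 to -0.04.

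Chemokines and cytokines had 8 of 36 measured members higher (22.2%, near the 19% of all genes) and 5 lower. Without the first KO 0 h array 5 were higher and 8 lower. Ccl12, a monocyte attractant, had 11.06 and 10.66 at KO 3 h against 9.11 and 9.46 at KO 0 h (change 1.58, and 1.11 on a second probe), and Il11, needed in mouse for decidualization, rose by 1.11. Il15, a growth factor of natural killer cells, had 8.63 and 9.29 at KO 3 h against 10.19 and 10.30 at KO 0 h (change -1.29). Il33 fell by 0.88, and by 0.58 without the second KO 0 h array.

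Interferon-stimulated genes depended on which KO 3 h array was used. Of 23 measured members 3 were higher (13.0%) and 2 lower (8.7%), against 19% and 21.4% of all genes. Their median change was 0.07, with 0.37 without the first KO 3 h array and -0.16 without the second. Without the first KO 3 h array 8 were higher, and without the second 6 were lower. Usp18, a negative regulator of interferon signalling, had 9.997 and 10.91 at KO 3 h against 9.59 and 9.66 at KO 0 h (change 0.82, and 1.28 without the first KO 3 h array, 0.37 without the second). Rsad2 and Ifit2, both antiviral effectors, each fell by 0.77, and by 0.35 and 0.37 without the first KO 3 h array, where Rsad2 lost its call. Ifit3 had 9.64 and 11.38 at KO 3 h against 11.15 and 11.25 at KO 0 h and did not pass the test (0.18 without the first KO 3 h array).

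Of the markers of uterine cell types, 15 of 16 epithelial, 12 of 12 smooth muscle, 11 of 12 stromal and 13 of 13 endothelial ones were measured. Measured means only that a probe exceeded its array's median on at least 2 of the 17 arrays, which does not show that a cell type was present. Epithelial markers were split, with 4 of 15 higher (26.7%) and 7 lower (46.7%), and smooth muscle markers were called less often (8.33% higher and 16.7% lower). Over all genes the shares were 19% and 21.4%. The epithelial factor Elf3 rose by 1.31 and the keratin Krt7 by 1.16, while the splicing factor Esrp1 fell by 0.61. Smooth muscle markers were nearly level, with 1 of 12 higher (Lmod1, 1.05) and 2 lower; Smtn fell by 0.68, Myh11 fell by 0.43 with its call lost in 3 of the 4 fits that left out an array (-0.68 to -0.17), and Des changed by 0.30 without passing the test (0.03 without the first KO 3 h array).

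Stromal fibroblast markers were lower for 7 of 11 and higher for 1 (median -0.49), among them Vim (-0.77) and Dpt (-0.66), beside the fall of Pdgfra. Endothelial markers were lower for 6 of 13 and higher for 2. Eng, an endothelial TGF-beta co-receptor, had 10.44 and 10.56 at KO 3 h against 9.30 and 9.32 at KO 0 h (change 1.20), while the receptor Tek fell by 0.66 and Robo4 by 0.61 on its brightest probe. These list shifts stand beside the falls of matrix, junction and growth factor receptor genes, and their part in those falls was not tested.

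The calls of leukocyte markers depended on single arrays. Macrophage markers, summarised as their mean relative to the mean of the 4 arrays, stood at -0.51 and 0.02 at KO 3 h against -0.14 and 0.63 at KO 0 h. Of 13 measured 4 were lower and 0 higher, but 11 were lower without the first KO 0 h array, 8 without the second KO 3 h array, and 1 without the second KO 0 h or the first KO 3 h array. Cd14, the lipopolysaccharide co-receptor, fell by 0.96, Lyz2 by 0.96 with its call lost when the first KO 3 h (-0.34) or second KO 0 h array (-0.41) was left out, and Cd163 by 0.76 with its call lost in 3 of the 4 fits. Adgre1, which encodes F4/80, had 9.02 and 9.48 at KO 3 h against 9.32 and 10.45 at KO 0 h and was not called, with a change of -0.07 without the second KO 0 h array.

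Granulocyte markers stood at -0.26 and -0.23 at KO 3 h against -0.17 and 0.66 at KO 0 h. S100a8 had 8.20 and 8.13 at KO 3 h against 8.35 and 11.61 at KO 0 h, and its change of -1.81 was -0.18 and not called without the second KO 0 h array. S100a9 changed by -1.55, and by -0.05 without that array, and both genes also lost their calls without either KO 3 h array. Of the 11 measured granulocyte markers 4 were lower and 0 higher, with 7 lower without the first KO 0 h array, 2 without the first KO 3 h array and 1 without the second array of either group. Mmp9 fell by 0.72, and Mpo changed by -0.49 without passing the test (0.04 without the second KO 0 h array). The high Hp signal stood on the same KO 0 h array, and the link was not tested.

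Adipocyte markers had the highest share of members called among the 13 marker lists. They stood at -1.33 and -0.25 at KO 3 h against 0.75 and 0.83 at KO 0 h, and Adipoq, which encodes adiponectin, had 9.02 and 11.39 at KO 3 h against 13.16 and 13.26 at KO 0 h; its change of -3.003 was -1.82 and not called without the first KO 3 h array. Mast cell markers had 1 of 9 higher (11.1%) and 2 lower (22.2%), against 19% and 21.4% of all genes. The members called were Kit (0.76), Gata2 (-0.43) and Cma1 (-0.27). The Cma1 call was lost without the first array of either group, and Cpa3 changed by -0.28 and was not called. Mesothelial markers had 3 of 8 lower, Upk1b (-0.74), Upk3b (-0.65) and Gpm6a (-0.35). That share is 37.5%, against 21.4% of all genes, and fewer were lower without the second KO 0 h array. The Upk3b call was lost without the second array of either group and the Gpm6a call without the second KO 0 h array. Of 8 lymphocyte, 4 erythroid, 5 ovary and oviduct and 5 nerve markers, 0 were called. The haemoglobin gene Hba-a1 had 11.56 and 11.14 at KO 3 h against 10.997 and 12.41 at KO 0 h.

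**Figure D3:**
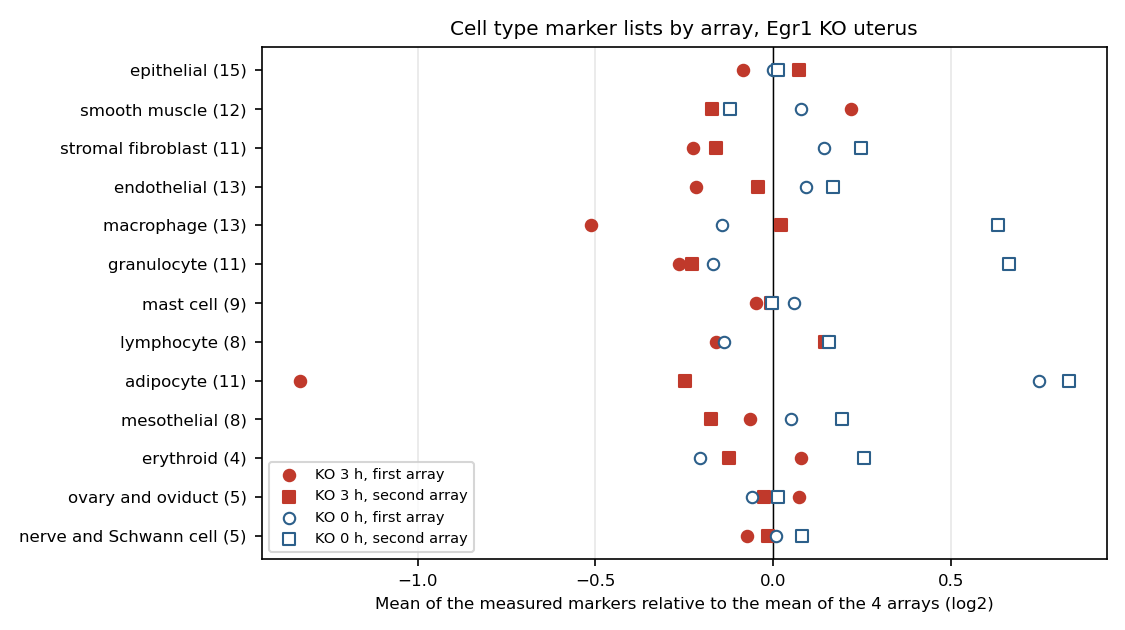
Mean log2 signal of the measured markers of 13 cell types (rows, number measured in brackets) relative to the mean of the 4 arrays (x axis), for the 2 KO 3 h arrays (filled red) and the 2 KO 0 h arrays (open blue). Adipocyte markers run from -1.33 on the first KO 3 h array to 0.83 on the second KO 0 h array, and macrophage and granulocyte markers are highest on the second KO 0 h array (0.63 and 0.66).

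The same interval in WT uterus was used to ask which changes differed by genotype. Of the 659 genes called with at least a 2-fold change in KO uterus, 656 changed in the same direction in WT uterus, 640 were called there in that direction, 19 were not called and 0 were called in the opposite direction. The interaction, the KO change minus the WT change, passed the test for 161 genes (1.09%), 89 higher and 72 lower, and 2024 genes had an unadjusted p under 0.05. The number called depended on single arrays, from 24 without the second KO 0 h array to 556 without the second WT 0 h array, and 21 genes (13 higher, 8 lower) stayed called in all 9 fits that left out an array.

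The 8 highest of these 21 were mostly genes that rose in KO uterus and fell or stayed level in WT uterus. Srek1, a splicing regulator, had log2 signals of 10.28 and 10.17 at KO 3 h and of 8.88 and 8.80 at KO 0 h, against 9.36, 9.37 and 9.54 at WT 3 h and 9.41 and 9.37 at WT 0 h (interaction 1.35 ± 0.09, adjusted p = 1.86e-05). Snai1, the repressor of epithelial genes, had 9.89 and 9.92 at KO 3 h and 9.43 and 9.32 at KO 0 h, against 9.83, 9.84 and 9.74 at WT 3 h and 10.10 and 10.33 at WT 0 h (interaction 0.94). At 3 h Snai1 was thus near equal in the genotypes, and the groups were apart at 0 h, where KO was 0.84 below WT (adjusted p = 0.000178). Sned1 (1.15), D630004K10Rik (0.89), Mllt3 (0.88), N4bp2 (0.84), Gabpb2 (0.81) and Cbx3 (0.81) completed the set. The other kept probes of Srek1, Sned1, Snai1, Mllt3, N4bp2, Gabpb2 and Cbx3 gave interactions between -0.07 and 0.31, so these differences were seen on the brightest probe.

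The 8 lowest interactions included genes of the extracellular surface and of transport. Has1, a hyaluronan synthase, had 8.94 and 8.75 at KO 3 h and 8.30 and 8.27 at KO 0 h, against 10.12, 9.88 and 9.91 at WT 3 h and 8.09 and 8.15 at WT 0 h. Its rise of 0.56 in KO uterus stood against 1.85 in WT (interaction -1.29 ± 0.11, adjusted p = 0.000124), and KO lay 1.13 below WT at 3 h and did not differ by the test at 0 h. Slc6a13, a GABA transporter, rose by 2.55 in KO uterus and by 3.85 in WT (interaction -1.30). Htr1d, a serotonin receptor, rose by 0.80 in KO and by 1.37 in WT (interaction -0.57).

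In the others the genotypes moved apart in direction or started from different levels. Slc25a33, a mitochondrial pyrimidine carrier, had 10.08 and 10.27 at KO 3 h and 10.80 and 10.62 at KO 0 h, against 10.23, 10.32 and 10.22 at WT 3 h and 9.54 and 9.58 at WT 0 h (interaction -1.23). The genotypes differed by 1.15 at 0 h and by -0.08 at 3 h. Sybu, a kinesin adaptor, and Ednrb, the endothelin B receptor, likewise were higher in KO than WT at 0 h (0.99 and 0.79) and close at 3 h, with interactions of -0.91 and -0.97 (-0.58 and -0.56 on their second probes). Tnfrsf11b, the decoy receptor osteoprotegerin, fell by 0.75 in KO uterus, changed by 0.24 in WT, and was 0.84 lower in KO than in WT at 3 h (interaction -0.996).

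**Figure D4:**
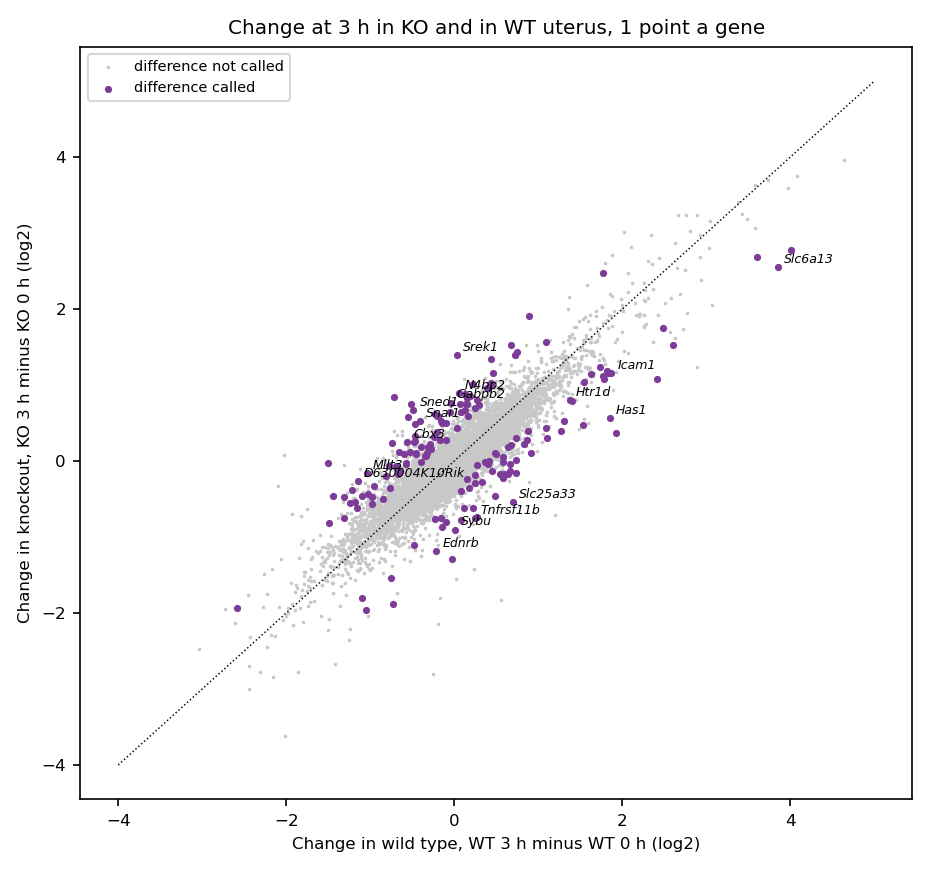
Change in log2 signal at 3 h in KO uterus (y axis) against that in WT uterus (x axis), 1 point for each of 14737 genes, with the 161 genes whose change differed between genotypes in purple and the 16 genes named in the text labelled. Most genes lie along the dotted line of equal change, with Srek1 above it and Has1 and Slc25a33 below it.

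The next step, KO 6 h against KO 3 h, shows how long the early changes lasted; it shares the KO 3 h arrays with the comparison above. It called 3440 genes (23.3%), 1718 higher and 1722 lower at 6 h, and the number fell to 1885 without the first KO 6 h array. Phf21b, Socs3 and Tob1 fell by 1.17, 1.31 and 1.78 at 6 h relative to 3 h (adjusted p = 0.000538, 0.000277 and 6.6e-05). Fos had mean signals of 9.27 at KO 0 h, 12.46 at 3 h, 11.69 at 6 h and 9.51 at 24 h. Aqp5 fell by 1.58 and Wnt4 fell by 1.18 in the same step, whereas Tmem200a (-0.29) and Klk1b5 (-0.55) did not pass the test.

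Several biosynthetic genes rose further between 3 h and 6 h. Aars was 1.03 higher at KO 6 h than at KO 3 h, Hsd17b7 1.23 higher, Cyp51 0.92 higher and Srm 0.79 higher, all past the test. Nop58 (0.13) and Etf1 (-0.16) did not change by the test. Among the falls, Rspo3 was 0.64, Msc 0.98 and Denn2b 1.06 higher at 6 h than at 3 h, Dbp and Klhl24 fell further by 0.82 and 1.05, and Sesn1 (-0.15) did not pass the test. Chac1 had 10.06 and 12.71 at KO 6 h against 13.66 and 12.47 at KO 3 h, so its 6 h arrays stood far apart and the step of -1.68 was not called (adjusted p = 0.0653).

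**Figure D5:**
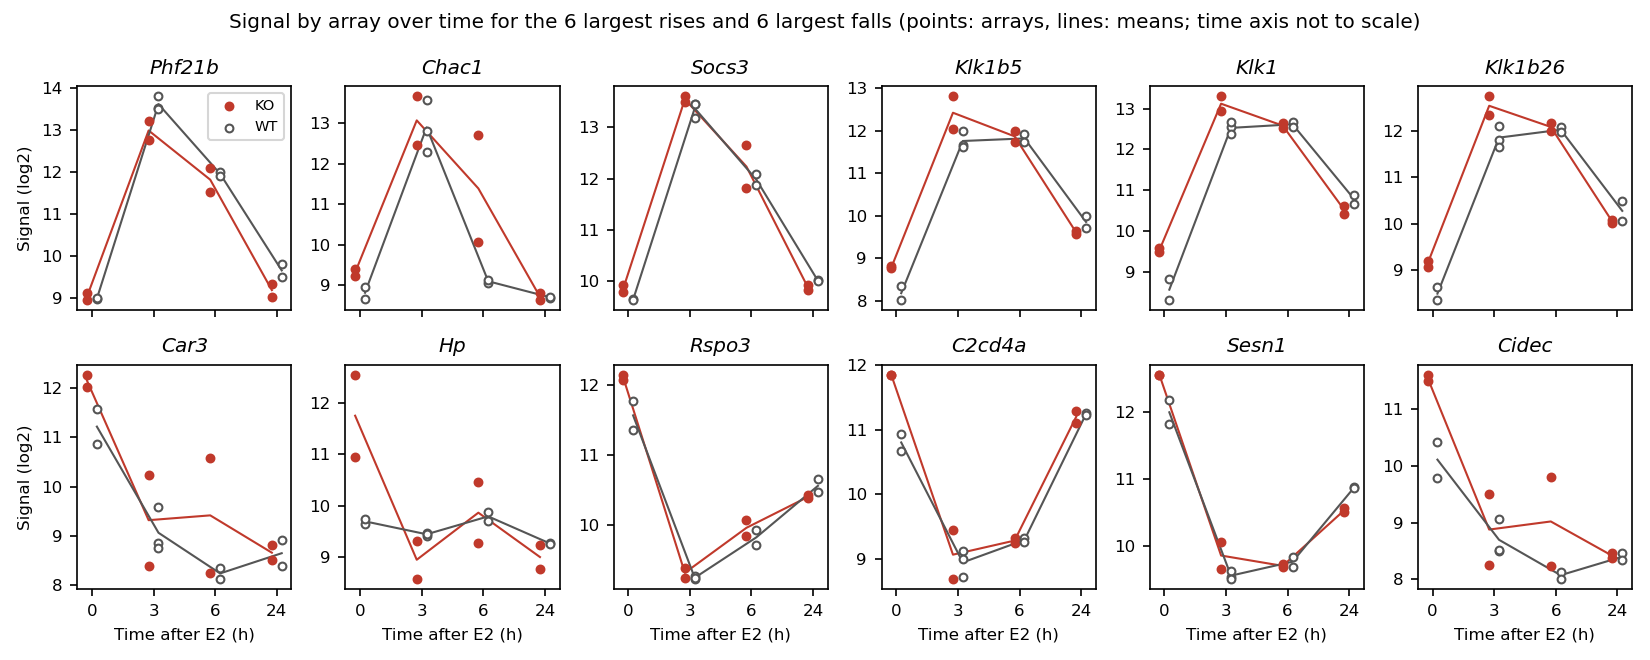
Log2 signal (y axes) by hours after E2 (x axis, not to scale; 0 h to 24 h) of the 6 largest rises (top) and 6 largest falls (bottom) in KO uterus (filled red) and WT uterus (open grey), with points for arrays and lines for means. The KO means of the 6 rises are highest at 3 h, and those of Rspo3, C2cd4a and Sesn1 remain well below 0 h at 6 h.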

How the data were processed

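Total RNA of mouse uterine tissue was extracted with Trizol, biotin-labelled and run on Illumina MouseWG-6 v2 arrays, per the labels' protocols. The deposited values are log2 signals quantile normalized by the authors: all 17 columns share the same quantiles (median 8.20, range 7.39 to 15.94). BeadStudio is named in the submitters' processing notes, while for its version, the background correction and any offset the notes are silent. Depth has no counterpart on arrays, and the number of arrays limits the precision.

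Of 45281 probes, 34885 had 1 gene symbol in the platform annotation, 18 had several and 10378 were not listed; 34807 were matched by Entrez ID to the RefSeq table (GRCm38.p6), which changed 0 symbols. A probe was kept if it exceeded its array's median on at least 2 arrays (29778 probes), and the brightest kept probe stood for a gene, giving 14737 genes. Group means of all 8 groups were fitted with limma 3.58.1 (R 4.3.3; 9 residual degrees of freedom), with Benjamini-Hochberg adjustment over all genes and a threshold of 0.05. The fit was also run on simulated data with planted changes, which checks the code and says nothing about these arrays. Alternatives changed the arrays, the filter, the probe rule, the variance model, the centring and the replicate block. They also left out, in turn, each KO 3 h, KO 0 h, WT 3 h, WT 0 h and KO 6 h array, and no array of the other groups.

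Genes are named by rule: the 15 largest rises and falls that were called in every fit leaving out an array with groups not overlapping, up to 4 members of each of 36 pathway and 13 marker lists with the largest change, the 8 highest and 8 lowest genotype differences called in every such fit, and Egr1 and Esr1. The members of this comparison and the lists were chosen with earlier results of these data known. The promoter matches of 1 synthetase gene are not reported here.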

Additional observations from a re-analysis of the deposited data

Results flagged for a closer look

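The change at 3 h differed between KO and WT uterus (limma, KO change minus WT change, called in the fit of all arrays and in each fit that left out 1 of the 9 arrays involved) for 21 genes, and the 8 highest and 8 lowest are given here. The difference was positive for Srek1 (1.35), Sned1 (1.15), Snai1 (0.94), D630004K10Rik (0.89), Mllt3 (0.88), N4bp2 (0.84), Gabpb2 (0.81) and Cbx3 (0.81). Apart from D630004K10Rik, these differences were seen on the brightest probe, and the other kept probes of the genes gave smaller ones, as stated above. The difference was negative for Slc6a13 (-1.30), Has1 (-1.29), Slc25a33 (-1.23), Tnfrsf11b (-0.996), Ednrb (-0.97), Sybu (-0.91), Icam1 (-0.71) and Htr1d (-0.57). Snai1, Slc25a33, Sybu and Ednrb differed between the genotypes at 0 h and were close at 3 h.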

How the results depend on the processing

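Leaving out each array in turn gave 4786 to 5834 called genes in KO 3 h against KO 0 h (2244 to 2800 higher, 2515 to 3034 lower), 537 to 841 with at least a 2-fold change, 24 to 556 genes whose change differed by genotype and 1885 to 3281 in KO 6 h against KO 3 h. Each of these ranges covers only the arrays that entered the comparison named. With every kept probe tested on its own, 10188 probes were called (5033 higher, 5155 lower, 995 at least 2-fold). There were 374 for the genotype difference and 5452 for the 6 h step, and this setting counts probes in place of genes. The mean of all kept probes of a gene left 439 genes called at least 2-fold. Array weights gave 46 genotype differences and 2144 genes in the 6 h step, and an adjusted p of 0.01 gave 19 and 1937; the cause of the drop under array weights was not tested. The shared replicate numbers are not tied by the labels to an animal, litter or day, so same-numbered arrays were not taken as pairs. Across genes, the difference between the 2 KO 3 h arrays correlated at 0.28 with that between the 2 KO 0 h arrays. This value cannot decide whether same-numbered arrays share a source. With the replicate block 5901 genes were called (659 at least 2-fold, 128 genotype differences, 3351 in the step), and with a block by title letter 5532. Over the alternatives run, 3036 values for the changes of named genes kept their direction and side of the threshold, 94 fell below it and 24 passed it anew; 0 called changes turned sign, and 22 values of genes that were not called did, among them Cenpa (0.28) and Esr1 (-0.27) without the first KO 3 h array. Of the 659 genes called at least 2-fold, 360 had another kept probe, and for 194 of these another probe showed under 25% of the change.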
